A study of Mus musculus with 4 samples.

Results

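The start-to-end Ser2P gradient of parental B16F10 cells compares, gene by gene, the serine 2 phosphorylation ratio of RNA polymerase II (Pol II) at the transcription end site (TES) with that at the transcription start site (TSS). A gene was a member when the authors' control value was above 0 at both ends, and its gradient was log2(TES ratio / TSS ratio). This held for 2921 of the 3117 genes listed at either end. Of the 3025 genes listed at both ends, 94 had a value of 0 at the TSS only and 10 at the TES only, and for these no gradient was computed. The cells were B16F10, an established mouse melanoma line of WT genotype and with no treatment named. Mammalian native elongating transcript sequencing (mNET-seq) digests chromatin with micrococcal nuclease, pulls down Pol II with an antibody and sequences the short RNA held in it. The control group had 1 library made with an antibody to Ser2-P Pol II and 1 made with clone 8WG16, an antibody to the carboxy-terminal domain (CTD) itself. Material from 3 sets of cells was pooled before the pull-down, so no spread between replicates could be measured, no test was run and every value describes this 1 control condition.

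Pol II carries a long CTD built of repeats that hold a serine at position 2 of each unit. P-TEFb (Cdk9 with cyclin T) and Cdk12 with cyclin K phosphorylate this serine as the polymerase moves away from the promoter, and the mark is read near gene ends by cleavage and polyadenylation factors such as Pcf11. Genome-wide maps of the mark are therefore known for low signal at starts and high signal towards and past the polyadenylation site.

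The deposited ratio reached far above 1, and its divisor, the width of the windows around each end and the choice of start site in genes with several remain unstated in the labels and headers. Read depth is unknown. A factor applied to a whole library cancels in the gradient only if both ends were scaled alike. Many ratios were coarse: 39.4% of the members shared their exact TSS ratio with another gene, and 21.8% their TES ratio. The commonest TES ratio was 1.03, in 28 genes, and the commonest TSS ratio 0.0857, in 16 genes, so the former was 12 times the latter. Of the melanocyte markers, Tyr, Pmel, Mlana and Mc1r had values above 0 at both ends and Tyrp1 and Sox10 were listed at the TSS only. Mitf, Dct and Slc45a2 were listed at neither end, so absence from the lists says little about cell type. Among markers of keratinocytes, fibroblasts, T cells, macrophages and endothelium only Cd68 was listed.

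The Ser2P ratio was higher at the end than at the start in 2838 of the 2921 genes. The median gene had a TSS ratio of 0.0841 and a TES ratio of 1.70, and the median gradient was 4.37, a 20.7-fold higher ratio at the end. The quartiles of the gradient were 2.95 and 5.84, its 5th and 95th percentiles 0.28 and 7.68, and its lowest value -4.51. Fkbp2, a prolyl isomerase gene, lay at the 5th percentile with 0.615 at the TSS and 0.745 at the TES. Nfx1, which encodes a zinc finger repressor, lay at the median with 0.151 and 3.12. Ino80, the ATPase gene of a chromatin remodeller, lay at the 95th percentile with 0.0253 and 5.20. The ratio spread more widely at the start than at the end, with an SD over genes of 1.70 at the TSS against 1.13 at the TES on the log2 scale. The levels at both ends were only weakly related across the 2921 genes (Pearson r = -0.18 on log2 ratios, Spearman rho = -0.20, a description over genes that share the same libraries).

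**Figure D1:**
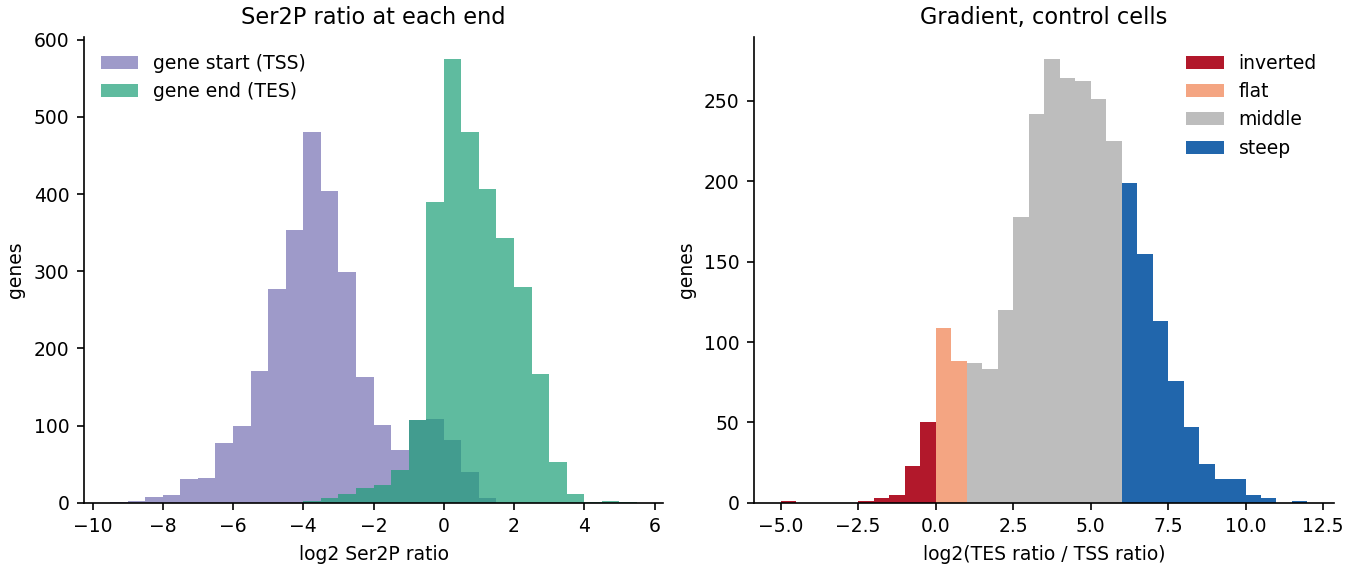
Left, number of genes by log2 Ser2P ratio at the start and at the end in control cells; right, number of genes by gradient, log2(TES ratio / TSS ratio), coloured by class. The start distribution has its peak near -4 with a second, smaller rise near 0 where the end distribution begins, and the gradient has a matching shoulder between 0 and 1 beside its main peak around 4.

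For description, genes were called inverted where the gradient was below 0, flat from 0 to below 1 (less than 2-fold) and steep from 6 upward (at least 64-fold). By these limits 83 genes (2.84%) were inverted, 197 (6.74%) flat, 653 (22.4%) steep and the other 1988 in between. The genes on either side of each limit were nearly alike: Rmrp at -0.001 and Rab24 at 0.002, Ankle2 at 0.999 and Rnf32 at 1.00, Ctc1 and Washc2 both at 6.0. The classes differed more at the start than at the end. The median TSS ratio was 1.15 in inverted, 0.779 in flat, 0.0947 in middle and 0.0299 in steep genes, while the median TES ratio was 0.841, 1.08, 1.52 and 4.11. Part of this order follows from the definition, since the gradient is made from both ratios. Shared TSS ratios were commonest in steep genes, 51.8% against 40.1% of middle, 7.11% of flat and 1.20% of inverted genes, so the steep class holds the coarsest starts.

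The steepest gradients joined a TSS ratio below 0.01 with a TES ratio of several units. Ctnnb1, the gene of beta-catenin (GRCm38 chr9:120929216-120960507, plus strand), had 0.00302 at the TSS and 4.93 at the TES, a gradient of 10.67. Smo, the signal-transducing receptor of the Hedgehog pathway, had 0.00434 and 6.86 (10.63). Atp6v1h, a subunit gene of the vacuolar proton pump, had 0.00506 and 7.16 (10.47). Mpp5, a cell polarity scaffold gene, followed at 10.35, Ica1 at 10.32, Rpap1, which encodes a Pol II-associated protein, at 10.19 and the gamma-tubulin complex gene Tubgcp5 at 10.01. Among the 12 steepest genes were also the lipase coactivator gene Abhd5 (9.96), Atad2b (9.89), the Integrator subunit gene Ints6 (9.87) and the origin recognition gene Orc2 (9.86). The 11 genes named here were all protein-coding and at least 24234 bp long, and their TSS ratios lay between 0.00242 and 0.00767 while their TES ratios lay between 2.83 and 9.11. The read counts behind these low starts are not given. The folds of Ctnnb1 (1630) and Mpp5 (1302) were whole numbers, while those of the other genes named here were not. Very few reads may set such starts. The order among these genes is therefore uncertain.

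At the other extreme, Serinc4, a member of the serine incorporator family (GRCm38 chr2:121439059-121456781, minus strand), had 1.495 at the TSS and 0.0658 at the TES, a gradient of -4.51 and a 22.7 times higher ratio at the start. Tlcd2 had 1.22 and 0.262 (-2.22), C87436 0.919 and 0.263 (-1.80), and Fam161a, a centrosomal protein gene, 1.68 and 0.514 (-1.71). Gzmm, which encodes a granule protease of natural killer cells, had 1.15 and 0.370 (-1.63). The antisense gene Tomm6os stood at -1.38, the autophagy gene Vmp1 at -1.15, the macrophage marker Cd68 at -1.14, Abhd14a at -1.07, the phosphatase gene Inpp5k at -1.01, the diphthamide synthesis gene Dph2 at -0.99 and the rhomboid gene Rhbdl1 at -0.98. Serinc4 aside, the ratio at the start of these genes was 1.97 to 4.64 times that at the end. Genes nearest to equality had TSS ratios far above the median of all genes (0.0841) and TES ratios below it (1.70). Rab24 had 1.11 and 1.11, the hyaluronidase gene Hyal3 0.623 and 0.627, and Espnl 1.22 and 1.22. The TFIID subunit gene Taf10 had 0.838 and 0.842, and the anti-Müllerian hormone gene Amh 1.04 and 1.05. Rmrp, the RNA of RNase MRP, had 0.673 and 0.672, and at a gene as short as this the windows of both ends can hold the same reads.

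The promoters of a steep and an inverted gene are shown because classes differed in their CpG content. Each is the 250 bases before the RefSeq start on GRCm38.p6, 5′ to 3′, with every CG in capitals. Smo lies at chr6:29735247-29735496 (plus strand) and has 15 CG, and Gzmm at chr10:79688770-79689019 (plus strand) has 3. These counts cover 250 bases and the class means below cover 300, and a single gene does not stand for its class.
Smo: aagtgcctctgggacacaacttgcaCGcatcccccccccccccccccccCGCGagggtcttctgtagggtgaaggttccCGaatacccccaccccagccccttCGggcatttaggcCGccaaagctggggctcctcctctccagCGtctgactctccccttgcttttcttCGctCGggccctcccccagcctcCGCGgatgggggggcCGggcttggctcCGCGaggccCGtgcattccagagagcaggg
Gzmm: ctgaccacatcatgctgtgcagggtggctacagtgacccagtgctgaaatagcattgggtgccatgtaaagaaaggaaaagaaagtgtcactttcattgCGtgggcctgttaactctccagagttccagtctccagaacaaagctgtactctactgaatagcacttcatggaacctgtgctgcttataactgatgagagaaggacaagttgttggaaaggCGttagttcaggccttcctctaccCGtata
A RefSeq promoter was found for 2430 members. In the 300 bases from 250 before to 50 after the start, steep genes held a mean of 25.9 CG, middle genes 24.1, flat genes 17.5 and inverted genes 14.9, against 23.8 over all members and 12.4 over all 32851 promoters of the table. From the fifth of members poorest in CG to the richest, the median gradient went from 3.86 to 4.99, and median gene length went from 13232 to 26126 bp. Set against the median gradient of genes of like length (10 groups by length), the median gene went from -0.35 in the group poorest in CG through -0.03, 0.05 and 0.03 to 0.27 in the richest. Among genes with no same-strand coding gene end within 10 kb upstream it showed no such order, at 0.28, 0.37, 0.37, 0.29 and 0.37. The classes of these genes still differed in mean CG: 25.9 in steep (495 genes), 24.5 in middle (1203), 16.2 in flat (25) and 14.0 in inverted genes (7). The letters TATAAA or TATATA between 40 and 20 bases before the start stood in 45 of these 2430 members (1.85%) and in 2.74% of the whole table. By class they stood in 5 of 537 steep (0.931%), 36 of 1660 middle (2.17%), 3 of 166 flat (1.81%) and 1 of 67 inverted genes (1.49%).

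Most inverted and flat genes began shortly after another gene on the same strand ended. In the GENCODE M21 annotation, a protein-coding gene on the same strand ended within 5 kb upstream of the start in 65 of 79 inverted genes (82.3%) and 137 of 195 flat genes (70.3%), against 293 of 1958 middle genes (15.0%) and 20 of 652 steep genes (3.07%). Over all 2884 members with a gene model the share was 17.9%. Within 1 kb the shares were 43.0%, 32.8%, 2.96% and 0.460%, against 5.51% over all. On the opposite strand, coding gene ends within 5 kb were less frequent but followed the same order. They stood at 19.0% of inverted, 9.74% of flat, 5.52% of middle and 1.84% of steep genes, against 5.34% over all. Fam161a starts 3751 bp after the end of the chaperonin gene Cct4, Gzmm 622 bp after Cdc34 and Cd68 783 bp after Eif4a1, so the only listed marker of another cell type sits next to a translation factor gene. Of the 12 lowest genes 9 had such an end within 5 kb, and Vmp1, Abhd14a and Tlcd2 did not, with the nearest one 56010 bp away at Tlcd2.

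The TSS ratio varied with this distance more than the TES ratio did. Where the upstream gene ended within 500 bp, the 84 genes had a median TSS ratio of 0.860 and a median gradient of 0.34, with 21 inverted and 38 flat. The median TSS ratio was 0.664 at 500 to 1000 bp (75 genes), 0.612 at 1 to 2 kb (107), 0.347 at 2 to 3 kb (98), 0.232 at 3 to 5 kb (151) and 0.114 at 5 to 10 kb (284). Beyond 50 kb, 1262 genes had 0.0654 at the start and a median gradient of 5.09. Over the same bins the median TES ratio ran from 1.15 within 500 bp, through 1.07 at 500 to 1000 bp, to 2.15 beyond 50 kb, and the median gene length from 6047 to 25043 bp. Against genes of their own length, the median log2 TSS ratio was offset by 3.06 within 500 bp and -0.31 beyond 50 kb, and the median log2 TES ratio by 0.10 and 0.02. The difference was present at both short and long genes. Among genes up to the median length the gradient was 0.98 with an upstream end within 5 kb (366 genes) and 3.95 with none within 20 kb (742), and among longer genes it was 2.77 (149) and 5.89 (1013).

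**Figure D2:**
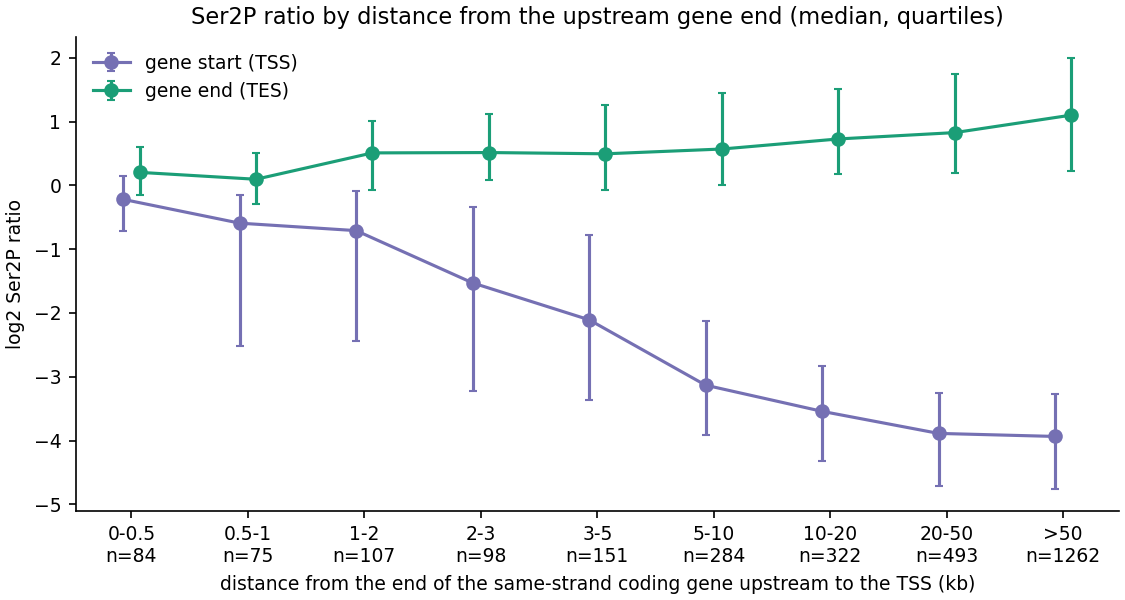
Median log2 Ser2P ratio at the start and at the end of a gene, with bars from the 25th to the 75th percentile over genes, by distance from the end of the nearest same-strand coding gene upstream; n is the number of genes. The start curve goes from -0.22 within 0.5 kb to -3.94 beyond 50 kb, and the end curve from 0.21 to 1.10.

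For 55 neighbours up to 1 kb apart the upstream gene also had a TES ratio, and that ratio and the TSS ratio of the gene after it were nearly the same number. The median quotient of downstream TSS over upstream TES was 1.01, 35 of the 55 pairs (63.6%) lay within 10% of equality, and across pairs Pearson's r of the log2 ratios was 0.97 and Spearman's rho 0.96. Atat1, the tubulin acetyltransferase gene, had 1.21 at its start, 304 bp after Mrps18b, whose end had 1.22. Zfp513, a zinc finger gene, had 1.78 at its start, 361 bp after the phosphatase gene Ppm1g, whose end had 1.41. At such distances the windows of both genes can cover the same stretch, so the signal of the one gene and that of the other cannot be told apart. At 1 to 5 kb, 96 pairs had r = 0.41 and a median quotient of 0.703. At 5 to 20 kb, 129 pairs had r = 0.11 and 0.0810, and beyond 20 kb, 251 pairs had r = -0.08 and 0.0294.

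Some of these neighbours are so close that the polyadenylation signal of the gene before can lie inside the promoter window of the gene after it. The hexamer AATAAA, searched on the gene's strand in the 250 bases before the RefSeq start, stood in 22 of 30 members with a same-strand coding gene end within 250 bp upstream (73.3%). These 30 were limited to members whose RefSeq start lay within 100 bp of the GENCODE start. Without that limit the hexamer stood in 6.46% of all members with a RefSeq promoter and in 10.4% of all promoters of the table, which does not make every match a working site. No position relative to the upstream end was required. Before Ganab, for instance, the last match lay 84 bp from the start, past the end of Ints5 at 183 bp. Windows of 28 bases are shown with the hexamer in capitals: before Stx5a (chr19:8741183-8741210, plus strand), Naa10 (chrX:73922126-73922153, minus), Akap8 (chr17:32321428-32321455, minus), Amdhd2 (chr17:24163868-24163895, minus) and Cad (chr5:31054584-31054611, plus), all on GRCm38.p6.
Stx5a: aacaccagagAATAAAgttaatattgcg
Naa10: gaaggctcgaAATAAAgatgaccctgtt
Akap8: agtccagcctAATAAAgtgctttcccat
Amdhd2: agctgtgtccAATAAAagttctcggatg
Cad: tattgactacAATAAAcaccttttcccc
Stx5a, a Golgi syntaxin gene, was inverted with 0.938 at the TSS and 0.558 at the TES. Naa10, an acetyltransferase gene 177 bp after Renbp, was flat with 1.25 and 1.39, and Renbp ended at 1.06. Akap8, a kinase anchor protein gene 186 bp after Akap8l, had 1.06 and 1.83, and Akap8l ended at 0.922. Amdhd2 had 0.885 and 1.17, 100 bp after the proton pump gene Atp6v0c, whose end had 0.851. Cad, the pyrimidine synthesis gene, had 0.509 at the start, close to the 0.526 at the end of Atraid 157 bp before it, and its own end at 1.81 gave a gradient of 1.83.

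**Figure D3:**
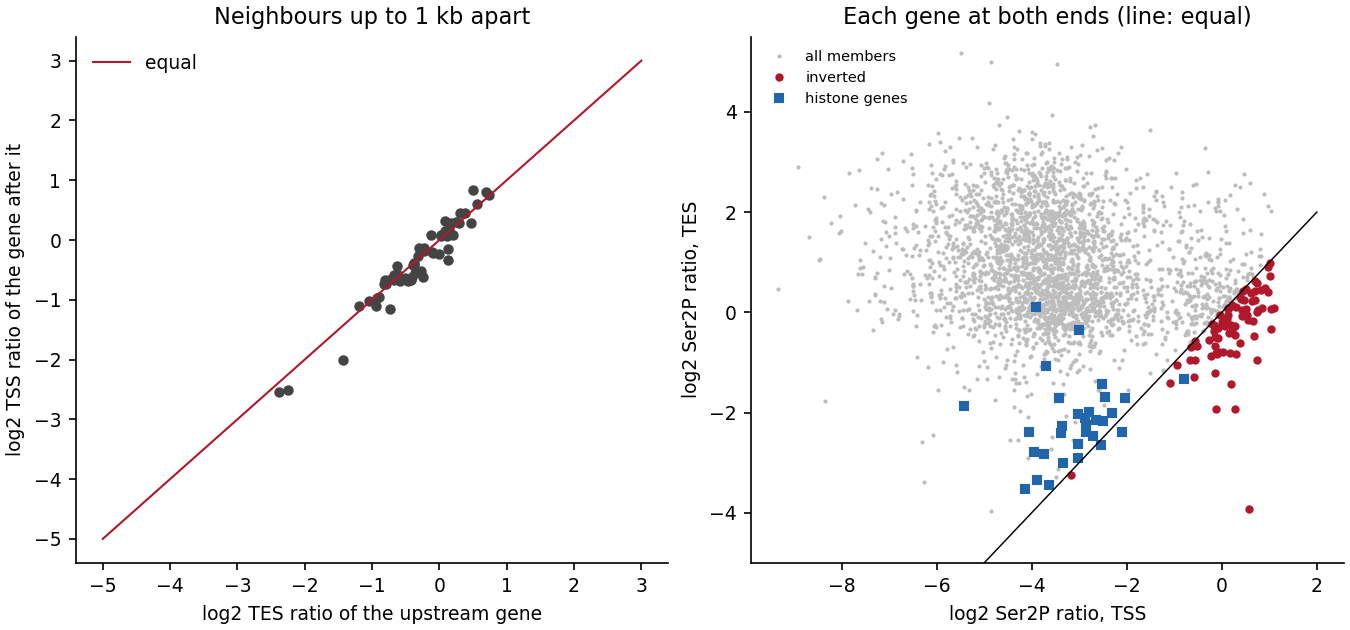
Left, log2 TSS ratio of a gene against the log2 TES ratio of the same-strand gene ending up to 1 kb before it, 55 pairs, with the line of equality; right, log2 TES ratio against log2 TSS ratio for all 2921 genes with inverted genes in red, histone genes as blue squares and the line of equality. The pairs follow the line, and histone genes lie low on the end axis while most inverted genes lie high on the start axis.

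Gene length went with the end rather than the start. In 10 groups of equal size by length, the median TES ratio was 0.778 in the shortest group (up to 3148 bp) and 4.63 in the longest (from 76809 bp), while the median TSS ratio was 0.112 and 0.0685. The median gradient was 2.24 in the shortest group, 4.42 in the fifth, 6.11 in the ninth and 6.10 in the longest. Steep genes made up 1.03% of the shortest group and 51.9% of the longest. Across the 2884 genes, log2 length had r = 0.74 and rho = 0.79 with the log2 TES ratio, -0.22 and -0.21 with the log2 TSS ratio, and 0.55 and 0.57 with the gradient. Genes with no same-strand coding gene end within 10 kb upstream showed the same order, from 3.27 in the shortest group to 6.30 in the ninth and 6.15 in the longest. Vmp1, at 99972 bp, and Ccdc138, at 78297 bp, were inverted in the longest group. Genes with 8 or more exons had a median gradient of 4.97 (1589 genes) and genes with 1 exon 2.098 (109), or 3.06 (77) once histone genes were set aside. Against genes of their own length the order turned around: the median distance from the median of the length group was 0.37 for genes with 1 exon, histone genes set aside, 0.39 with 2 exons, 0.16 with 3 to 7 and -0.11 with 8 or more.

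**Figure D4:**
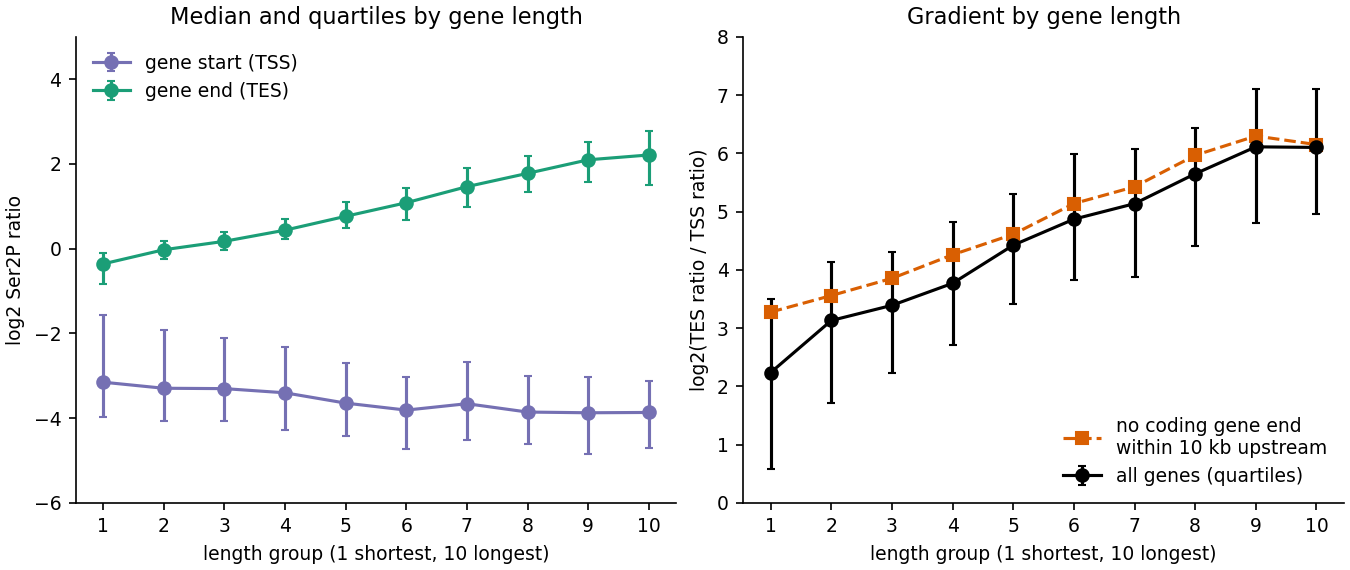
Left, median log2 Ser2P ratio at the start and the end by length group, with bars from the 25th to the 75th percentile over genes; right, median gradient by length group for all genes and for genes with no same-strand coding gene end within 10 kb upstream. The end curve climbs from -0.36 to 2.21 while the start curve goes from -3.15 to -3.87.

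By gene symbol, 40 families with at least 5 members were described. Their median gradients ran from 0.69 to 6.26, 6 lay at least 1 below the median of all genes and 7 at least 1 above it. Because length differs between families, each gene was also set against the median of its own length group, and the median of these differences is called the length offset. The clustered histone genes, which build the nucleosome during S phase, stood lowest, with a median of 0.69 over 32 genes, 3 inverted and 18 flat. That is 9.38% inverted and 56.2% flat, against 2.84% and 6.74% of all members, and none was steep. As a family they were low at the end, with a median TES ratio of 0.216 against 1.70 over all genes. Their median TSS ratio was 0.122, against 0.0841 over all genes. The 3 inverted members started above the family median: Hist1h2ad had 0.574 and 0.396 (-0.54), Hist1h3a 0.234 and 0.191 (-0.29) and Hist1h4a 0.172 and 0.160 (-0.10). The highest were Hist1h2bc with 0.0664 and 1.07 (4.02) and Hist1h2ag with 0.0234 and 0.272 (3.54). The length offset was -1.55, and 4 of 32 genes lay above their length group.

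Most mRNAs of these genes end after a short stem-loop in place of a poly(A) tail, and that element is shown because the histone genes differed from others at the end. The stem-loop consensus of 16 bases was found in the transcripts of 26 of the 32 genes (81.2%) and of 6 of 2852 other members (0.210%). It is printed as DNA in capitals with 5 bases on each side, from GENCODE M21 transcripts on GRCm38, for Hist1h2ad (gene at chr13:23574381-23574952, plus strand), Hist1h3a (chr13:23761853-23762386, minus), Hist1h4a (chr13:23760692-23761230, minus) and Hist1h2ag (chr13:22042460-22042944, minus).
Hist1h2ad: acaaaGGCTCTTTTCAGAGCCatcca
Hist1h3a: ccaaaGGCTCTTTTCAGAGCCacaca
Hist1h4a: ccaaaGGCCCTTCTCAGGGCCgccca
Hist1h2ag: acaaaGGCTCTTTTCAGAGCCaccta
Hist1h2ad, inverted, and Hist1h2ag, among the steepest of the family, carry the same 16 letters. The annotated transcripts of 6 genes held no match: Hist2h2bb (gradient 0.33), Hist2h3b (0.60), Hist1h2af (0.81), Hist1h2ah (1.15), Hist2h2be, which had 0.124 and 0.783 (2.66), and Hist1h2bc (4.02). Those of Hist2h2bb, Hist1h2af and Hist1h2ah were only 381, 399 and 405 bases long and may stop short of a stem-loop. Hist1h2bc has the longest span of the family, 8710 bp. The 23 histone genes of up to 1000 bp had a median gradient of 0.53 and the 9 longer ones 1.68. Among the longer ones, the annotated transcript ran on past the stem-loop by 377 bases in Hist2h3c2 (gradient 1.70), 2010 in Hist1h2ac (1.68) and 2445 in Hist4h4 (0.98). It also ran on by 1643 bases in Hist3h2a (1.01), 1257 in Hist2h4 (0.12), 1214 in Hist1h2bh (0.47) and 1162 in Hist2h3c1 (1.70). Among the shorter ones the longest such run was 454 bases, in Hist1h4c (0.19). The annotated end of the longer ones may therefore lie well past the stem-loop. Other genes of up to 600 bp were also nearly flat, with a median of 0.78 over 16 genes, but their median TES ratio was 0.737 against 0.191 in 17 histone genes of that length. In genes this short the windows of both ends may overlap, and what part the windows have in the flatness was not tested. Hist2h3c1 and Hist2h3c2 had the same value at both ends, as did Eif3j1 and Eif3j2, Amd1 and Amd2, and Rps27 and Rps27rt, near-identical copies whose reads may not be told apart. So did 2 further pairs that are not copies of each other, Mbd5 and Mettl3, and Htd2 and Rpp14.

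Ribosomal protein and immediate early genes lay below the median of all genes but above that of their own length, while antisense genes lay below both. The 64 cytosolic ribosomal protein genes had a median of 3.31 with a narrow spread, 0 inverted, 1 flat and 0 steep, so 0% steep against 22.4% of all members. Their median TSS ratio was 0.0883 and their median TES ratio 0.906. Rps2 was highest with 0.0221 and 0.814 (5.20), followed by Rps16 with 0.0230 and 0.825 (5.17). The median length was 3226 bp, the length offset 0.38, and 41 of the 64 lay above their length group. Immediate early genes, switched on within minutes by growth signals, had the low start ratio of 0.0578 and the low end ratio of 0.802, with a median gradient of 4.01 over 35 genes, a length offset of 0.33 and 22 of 35 above their length group. Fos had 0.0116 and 0.826 (6.15), Dusp1 0.0254 and 0.790 (4.96), Jun 0.0578 and 0.683 (3.56), Egr1 0.0981 and 0.736 (2.91) and Ier3 0.518 and 0.483 (-0.10). The 10 small nucleolar RNA host genes had a median of 3.01, from Snhg4 (4.07) to Epb41l4aos (1.02), and a length offset of -0.01, with 4 of 8 above. The 14 antisense genes had a median of 3.04 and a length offset of -0.52, with 5 of 14 above, and spanned from Bloc1s6os (7.71) to Tomm6os (-1.38).

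Energy and organelle genes were mixed. ATP synthase genes had a median of 3.06 over 7 genes, from Atp5c1 with 0.0640 and 3.40 (5.73) to Atp5e with 0.850 and 1.04 (0.29). The 10 vacuolar proton pump genes had a median of 3.75 and a wide range: Atp6v1h at 10.47 was among the steepest of all genes, and Atp6ap1, with 0.952 and 0.699, was inverted at -0.45. Cytochrome oxidase genes had a median of 3.67 over 11 genes and complex I genes 4.49 over 15. The 15 replication licensing genes had a median of 3.42 and a length offset of -0.86, with 5 of 15 above their length group. Among them, Orc2 stood at 9.86, Mcm3 at 4.82, Mcm2 at 3.93, and Mcm6, with 1.13 and 2.03, at 0.85. For melanocytes and pigment, 11 genes gave a median of 4.10, near that of all genes, but lay 1.11 below their length groups, with 1 of 11 above. Tyr, the tyrosinase gene, had 0.131 and 2.98 (4.51), Pmel 0.131 and 1.51 (3.53), Mlana 0.106 and 1.40 (3.72), Mc1r 0.155 and 0.627 (2.02), and the myosin gene Myo5a 0.0495 and 6.31 (6.99).

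Genes for the machinery that writes and reads the mark were themselves spread over the range. Of 14 Ser2 kinase, pausing and elongation factor genes the median was 4.01, with 4 steep (28.6%, against 22.4% of all members) and none flat or inverted. The kinase gene Cdk12 had 0.0719 and 3.78 (5.72), the cyclin genes Ccnt2 0.0430 and 3.93 (6.51) and Ccnt1 0.180 and 2.09 (3.54), and the super elongation complex scaffold gene Aff4 0.0541 and 5.43 (6.65). Iws1 and Wdr61 each stood at 6.43, the pausing factor gene Nelfb at 4.94, Supt4a at 4.02, Larp7 at 4.0, Mepce at 3.87, the histone chaperone gene Supt16 at 3.65 and Tcea1, which encodes TFIIS, at 3.15. Hexim1, the inhibitor of P-TEFb, had 0.150 and 1.03 (2.78), and the elongation factor gene Ell was lowest with 0.667 and 1.52 (1.19). The 6 CTD phosphatase and reader genes had a median of 5.22. Rpap2, a CTD phosphatase gene, had 0.00512 and 2.06 (8.65), Ctdp1, the gene of the phosphatase FCP1, 0.111 and 9.81 (6.47), and Recql5, Pcif1, Rprd1b and Scaf8 lay between 4.75 and 5.35.

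Cleavage, polyadenylation and termination genes had the highest family median, 6.26 over 12 genes, with 7 steep (58.3% against 22.4% of all members). The poly(A) polymerase gene Papola had 0.0375 and 6.89 (7.52), the termination exonuclease gene Xrn2 0.0497 and 7.25 (7.19), Fip1l1 0.0363 and 4.69 (7.01), Nudt21 0.0274 and 3.32 (6.92) and Cpsf6 0.0557 and 4.96 (6.47). Cstf3 stood at 6.45, Wdr82 at 6.06, the Ser2P reader gene Pcf11 at 5.78, Cpsf2 at 4.79 and Cstf1 at 2.94. Rbbp6 had 0.473 and 3.36 (2.83), and Pabpn1, the nuclear poly(A) binding protein gene, was flat with 0.523 and 0.976 (0.90). The length offset of the family was 0.73, smaller than its distance of 1.89 from the median of all genes. Nucleoporin genes followed with a median of 6.08 over 9 genes, from Nup93 with 0.0623 and 12.2 (7.61) to Nup155 (2.62). Rab GTPase genes had 5.88 over 15 genes, from Rab8b (8.00) to Rab24 (0.00). Vps vacuolar sorting genes had 5.71 over 7, ubiquitin-specific protease genes 5.61 over 10, and Integrator and Mediator genes 5.38 over 14, where Ints6 (9.87) and Ints5 (-0.73) stood at opposite ends.

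The SR splicing factor genes had the largest positive length offset, 1.49, with 7 of 8 genes above their length group. Their median gradient was 5.40, which is 1.03 above that of all genes, 0.66 with 0.01 added to both ratios and 0.24 with 0.05 added, with a low median TSS ratio of 0.0428 and a TES ratio of 2.59. Tra2b had 0.0239 and 3.20 (7.07), Srsf1 0.0178 and 0.942 (5.72), Srsf7 0.0320 and 1.13 (5.14), Srsf6 0.0398 and 1.07 (4.75) and Srsf4, the lowest, 0.383 and 5.25 (3.78). Set against their length groups, the median log2 ratio of histone genes was offset by 0.12 at the TSS and -1.85 at the TES. The same offsets were -0.99 and 0.33 for SR genes, and -0.31 and 0.29 for cleavage and polyadenylation genes, so histone genes differed at the end and SR genes mostly at the start.

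**Figure D5:**
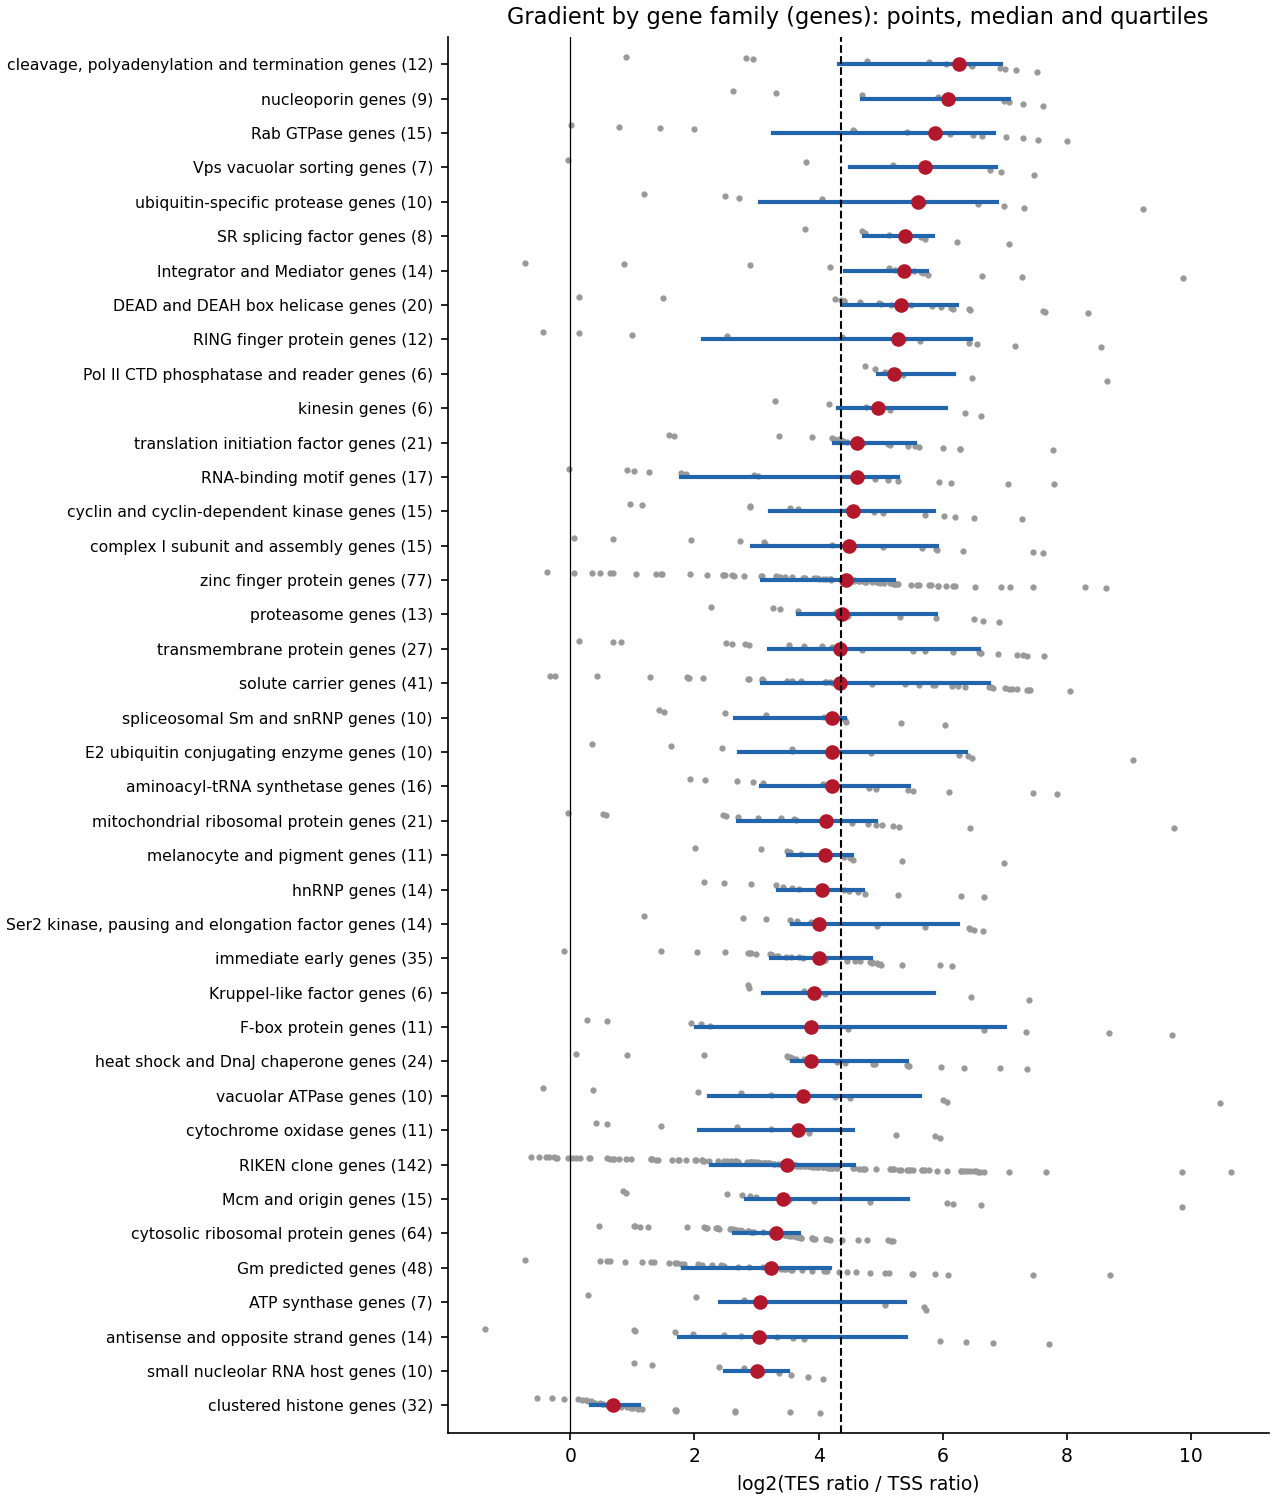
Gradient, log2(TES ratio / TSS ratio), of each member gene (grey points) by family, with the family median (red) and the line from the 25th to the 75th percentile (blue); the dashed line is the median of all 2921 genes, 4.37, and the number of genes is in parentheses. Histone genes sit near 0 with a median of 0.69, ribosomal protein genes form a narrow band around 3.31, and cleavage and polyadenylation genes have the highest median, 6.26.

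The 94 genes listed at 0 at the start have no gradient. Their median TES ratio was 2.01, with a range of 0.0791 to 16.5, and their median length was 21938 bp against 18112 bp in members. The 10 genes listed at 0 at the end had a median TSS ratio of 0.0439. A value of 0 may be a gene with too few reads, and no fold was given for these genes.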

How the data were processed

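The deposited values used are, per the file headers, Ser2 fractions of control cells at the TSS and at the TES. The authors made each deposited ratio by dividing the Ser2 signal at an end by another signal, per the file headers' word fraction; the values exceed 1, and the divisor is not given in the sources used here. Per the submitters' processing notes, reads were handled with cutadapt 1.18 and TopHat2 2.1.1, with mm10 (GRCm38) as build. The other 4 value columns were not used. Gradients were computed as log2(TES/TSS) with no pseudocount (Python 3.11.15, pandas 2.3.3), tested on simulated data. Symbols were looked up, ignoring case, in GENCODE M21: 2884 members had a gene model, 6 of them by an older symbol, and 37 had none. Length is the annotated gene span, and distances run from the end of the nearest coding gene to the outermost annotated start. Sequences come from RefSeq on GRCm38.p6 (promoters) and GENCODE M21 transcripts (stem-loops).

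Genes were named by rule: the 12 steepest, the 12 lowest and the 6 nearest 0 among symbols of established genes, the genes at percentiles 5, 50 and 95, the highest and lowest of each family described, and listed kinase, phosphatase, cleavage and pigment genes. Neighbour examples, genes with printed windows and the further family members named were chosen after their values were seen. Genes left unreported here include some picked by this rule. Families were defined by symbol patterns and lists, and 25 symbols that the patterns caught wrongly (pseudogenes, antisense genes and partners) were taken out. The members and lists were chosen with earlier results of these data known. Depth is unknown, so no counting interval is given, and with 1 pooled library per antibody no test was run. Alternatives were 2 pseudocounts, minimum values, coarse values left out, length, neighbouring genes and gene type.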

Additional observations from a re-analysis of the deposited data

How the results depend on the processing

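The median gradient stayed between 3.70 and 4.92 under the 10 alternatives, and the shares of classes moved more. With 0.01 added to both ratios and genes at 0 kept, steep genes were 20.1%. With 0.05 added, the median was 3.70, steep genes were 6.61% and 8 families in place of 13 lay at least 1 from all genes, since adding a constant lifts the lowest starts. With a TSS ratio of at least 0.02, the median was 4.17 and steep genes 16.7%. With genes of shared TSS ratio left out, the median was 3.83, inverted genes 4.63%, flat 10.3%, steep 17.8% and 8 families stood apart; with shared TES ratios left out, the median was 4.26 and steep genes 20.4%. In genes of at least 5000 bp the median was 4.80, inverted 1.60%, flat 4.17%, steep 26.9%, and 8 families stood apart. Where no further gene ended closer than 1 kb to the TSS, the median was 4.56, inverted 1.53%, flat 4.25% and steep 24.2%. In protein-coding genes alone the median was 4.47. With no same-strand coding gene end within 10 kb upstream, an alternative chosen after seeing the data, the median was 4.92, inverted 0.480%, flat 1.73% and steep 28.9%.

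Each family median, less that of all genes, was recomputed under 10 alternatives, and 52 of the 386 values lay on the other side of 0. Of these, 48 were in families less than 1 from all genes, such as the Ser2 kinase group (0.79), vacuolar proton pump genes (1.09) and F-box genes (2.08) with no same-strand end within 10 kb upstream, all 3 below 0 with every gene kept. The other 4 were among 124 values for families at least 1 away. Ubiquitin-specific protease genes stood at -0.44 without shared TSS ratios (6 genes). ATP synthase genes stood at 0.28 and antisense genes at 0.073 in genes of at least 5000 bp, and ATP synthase genes at 0.15 with no same-strand end within 10 kb upstream; the cause was not tested. No paired analysis was possible because each antibody has 1 control library and the values come from no test. Unknown depth limits all TSS ratios below about 0.02, where the steepest genes lie.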

Other observations

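Of the 55 neighbour pairs up to 1 kb apart, Pmf1, a kinetochore gene that starts 167 bp after Slc25a44, had the lowest quotient of its own TSS ratio over the upstream TES ratio, 0.669. It had 0.248 at the TSS, against 0.371 at the end of Slc25a44, and ended at 7.28, a gradient of 4.87, where the median over the 55 pairs was 0.41. Pmf1 was chosen after its values were seen. Where the upstream gene was itself listed at the TES and ended 1 to 5 kb before, the median TSS ratio of the next gene was 0.690 (96 genes); where it was not listed, it was 0.225 (260 genes). Inverted genes with no same-strand coding gene end within 10 kb upstream were 10 in number.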
